A study of Caenorhabditis elegans with 6 samples.

Results

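The loci described here are the rows of the deposited table whose WormBase identifiers fall between WBGene00195000 and WBGene00202499, a run of numbers given mostly to short noncoding RNA genes of Caenorhabditis elegans. The table listed 83 such rows among 5739 genes. The annotation calls 75 of them ncRNA, 6 protein-coding and 2 pseudogenes, so the name short ncRNA loci holds for most rows and not for all. The annotated run holds 7384 genes, 7265 of them ncRNA, and 1.12% of it was listed. Of the 83 rows, 15 were at 0 in both groups of libraries. The other 68 formed 62 loci when rows with the same values were counted as 1 locus, and 6 loci had 2 rows each. The 4 loci named F31C3 lie at the ribosomal RNA genes and are described apart from the other 58.

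ALG-2 is an Argonaute protein, which binds miRNAs and uses them to recognise target messenger RNAs. In polysome immunoprecipitation, a tagged protein of the ribosome pulls down ribosomes of the cells that express it, with the messenger RNA on them. Ribosomal RNA is part of every ribosome, and in C. elegans the genes of its large precursor stand in a repeated array at one end of chromosome I, apart from those of 5S RNA. Short ncRNA genes have no coding sequence, and for most loci of this run no function is known.

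The experiment had 6 libraries of L4 worms grown at 20 °C, 3 of them wild type and 3 alg-2(ok304), the deletion allele. Both strains carried a single inserted copy of a tagged ribosomal protein, RPL-18, under the pan-neuronal rgef-1 promoter. In the strain list, the tag is FLAG in wild type and HA in alg-2(ok304), while the methods describe beads against FLAG for all samples. The headers of the alg-2(ok304) columns read alg-1 where the labels read alg-2. No library of the lysate before immunoprecipitation was analysed here, and each group was 1 strain, so strain, tag and genotype cannot be told apart. The study calls the immunoprecipitations of a group biological triplicates.

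The value per library was not a read count. Within wild type, library 2 was 1.40 times and library 3 was 1.52 times library 1 in every gene above 0, and within alg-2(ok304) the ratios were 1.17 and 2.24, so the columns are values fitted by the authors' model, called fitted reads here. They carry no variation between replicates, and no test, SD or precision could be given for any difference below. The columns summed to between 4769250 and 17692391 fitted reads, and ribosomal RNA held 97.9% of them in wild type, against 85.1% in alg-2(ok304). Fewer cells of a type and less RNA per cell cannot be told apart in such bulk samples. Of 20 marker genes of neurons, 8 were listed, without rgef-1 itself, and their fitted reads summed to 12 against 83.7, wild type being given first here and below. Of 15 marker genes of body wall muscle, 14 were listed, with 1115 against 1915 fitted reads. The neuronal label of the libraries was thus carried by few of these reads, and the part of the cell types in the results was not tested.

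Unless library values are given, a value is the sum of a group's 3 libraries. Since the ribosomal share differed between the groups, log2 ratios of alg-2(ok304) over wild type are given relative to the median of 744 protein-coding genes with at least 10 fitted reads in each group, and 0, called the reference median below, is that point of no change. Over all protein-coding genes above 0 in a group, also those with few reads, the median log2 ratio on this scale was 1.40. A pseudocount of 0.5 fitted reads was added on the common scale. Other scales moved this point by between -2.47 and 1.30 on the log2 scale. A log2 ratio of 2 is a 4-fold difference.

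The short ncRNA rows held a large share of the reads. The 83 rows took 1.37% of all fitted reads of wild type and 10.2% of those of alg-2(ok304). Outside ribosomal RNA, the shares were 65.6% and 68.5%, or 57.6% and 53.7% of the same totals when the reads of a locus with 2 rows were counted once. The rows that made up the share differed more. The F31C3 rows held 37.4% of the reads outside ribosomal RNA in wild type, against 10.1% in alg-2(ok304), and the other rows held 28.1% and 58.5%, or 20.2% and 43.6% with each locus counted once. Of the 20 rows with the most reads outside ribosomal RNA, 13 of wild type and 11 of alg-2(ok304) were short ncRNA rows, and 5 and 6 more were genes that such a locus overlaps.

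**Figure D1:**
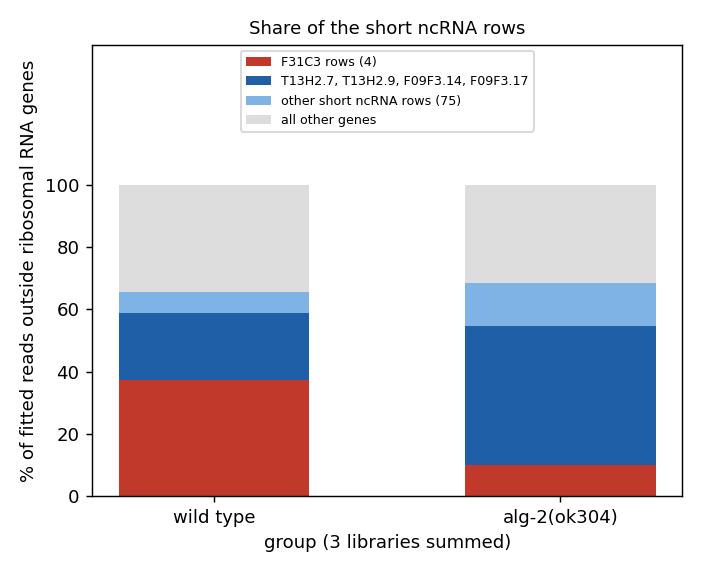
Share of fitted reads outside ribosomal RNA genes, in percent, in each group (3 libraries summed), stacked by kind of row. The F31C3 rows take 37.4% in wild type, against 10.1% in alg-2(ok304), and the rows of T13H2 and F09F3 take 21.3% and 44.4%. The reads of T13H2 are counted in both of its rows.

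The 4 F31C3 loci each lie on the strand opposite to a gene of the ribosomal RNA array on chromosome I. F31C3.15 (I:15063050-15063383 in WBcel235, 334 bases) lies opposite rrn-1.1, a gene of the small-subunit RNA, and its wild-type columns read 63939, 89296 and 97046, those of alg-2(ok304) 48246, 56621 and 108308. The columns of the groups overlapped for this locus, before any scaling for depth. F31C3.14 (I:15067668-15068355, 688 bases) lies opposite rrn-3.1, the large-subunit RNA gene, and summed to 53321 and 51262. F31C3.13 (I:15070431-15070580) lies opposite another copy of rrn-1.1 and summed to 19364 and 31046. F31C3.16 (I:15060861-15061159) lies opposite a pseudogene, WBGene00004677, and summed to 34776 and 22139. F31C3.15 and F31C3.14 thus took the most reads of the 4 in both groups, without regard to length, and F31C3.13 and F31C3.16 exchanged places.

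Relative to the reference median, all 4 were lower in alg-2(ok304), with log2 ratios of -1.58 for F31C3.15, -1.41 for F31C3.14, -0.67 for F31C3.13 and -2.0 for F31C3.16. All 4 were higher on the scale of all totals, which ribosomal RNA dominates. The log2 ratios of rrn-3.1 and the rrn-1.1 copies were -2.75, -1.99 and -1.98, whereas rrn-2.1, a gene of the same array, had a log2 ratio of 0.25, from 887 and 2694 fitted reads. The pseudogene summed to 166007 and 123116 fitted reads. F31C3.15 equalled 13.7% of the reads of its rrn-1.1 copy in wild type, against 18.1% in alg-2(ok304), and F31C3.14 equalled 0.130% and 0.331% of those of rrn-3.1. The sources used here do not say that the counting used strand, and rows on opposite strands of 1 stretch, such as T13H2.7 and T13H2.9, had the same values. Reads there were thus counted for the rows of both strands. Reads of an F31C3 locus and of the gene opposite therefore cannot be told apart. A further locus, cTel29B.1, starts 1232 bases from rrn-1.1 without overlapping it, and was listed as a row on each strand with 41.2 and 75.1 fitted reads (log2 ratio -0.48, higher on the scale of all totals).

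**Figure D2:**
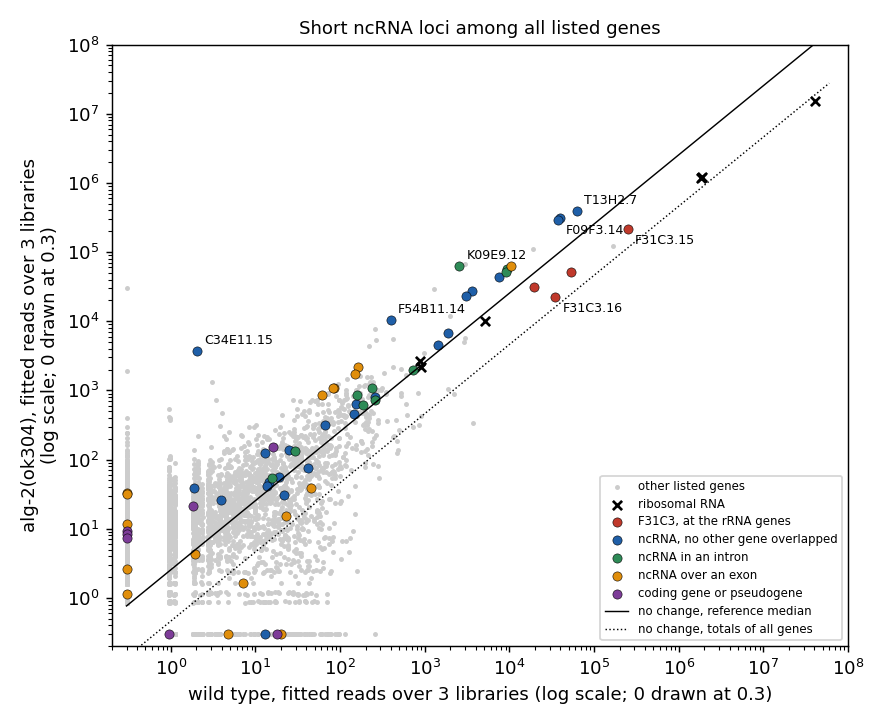
Fitted reads of each listed gene summed over 3 libraries, wild type on the x axis and alg-2(ok304) on the y axis, both on log scales, with the loci coloured by what they overlap and ribosomal RNA as crosses. The 4 F31C3 loci lie below the line of the reference median, with log2 ratios from -2.0 to -0.67, and C34E11.15 lies farthest above it among the loci, at 9.26.

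Outside F31C3, 3 loci held most of the reads. T13H2.7 (X:4606507-4606661, 155 bases) and T13H2.9 lie on opposite strands of the same stretch and had the same values, 16155, 22561 and 24520 fitted reads against 89777, 105362 and 201541 in alg-2(ok304). F09F3.14 (V:13868872-13868924, 53 bases) had 9630, 13449 and 14616 against 66735, 78320 and 149814. F09F3.17 (V:13868953-13869098, 146 bases) lies 28 bases from it on the same strand and had 10156, 14183 and 15414 against 70141, 82317 and 157461. The groups did not overlap in the columns of any of these loci, before scaling for depth. As the columns are proportional within a group, this restates the sums, and a gene at the reference median would not overlap either. Neither F09F3 locus had a listed gene within 2 kb, and the nearest to T13H2.7 was spat-3, 578 bases away, with 73.7 and 341 fitted reads.

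The log2 ratio was 1.30 for the T13H2 locus, 1.62 for F09F3.14 and 1.61 for F09F3.17. Set against the totals outside ribosomal RNA and the genes beside it, these came to 0.00, 0.32 and 0.32, but the loci themselves make up much of those totals. With the short ncRNA rows left out of the totals, a scale added after the data were seen, they came to 0.24, 0.56 and 0.55. The 4 rows held 47.2% of the reads outside ribosomal RNA and beside it in wild type, against 51.7% in alg-2(ok304), with the reads of T13H2 counted in both of its rows. Counted per base of annotated length, F09F3.14 was the densest of the loci in alg-2(ok304), with 5564 fitted reads per base, before T13H2.7 with 2559, F09F3.17 with 2123, K09E9.12 with 1233 and F31C3.15 with 638. The study's reads were longer than the annotated F09F3.14 and K09E9.12, which raises a value per base. F09F3.14 and F09F3.17 lie close together with near sums, and whether the same fragments were counted for both was not tested. In wild type, F31C3.15 was the densest, with 749 fitted reads per base, against 711 for F09F3.14 and 408 for T13H2.7. This exchange of places between F31C3.15 and the others is read within each group, and no scale between the groups enters it.

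**Figure D3:**
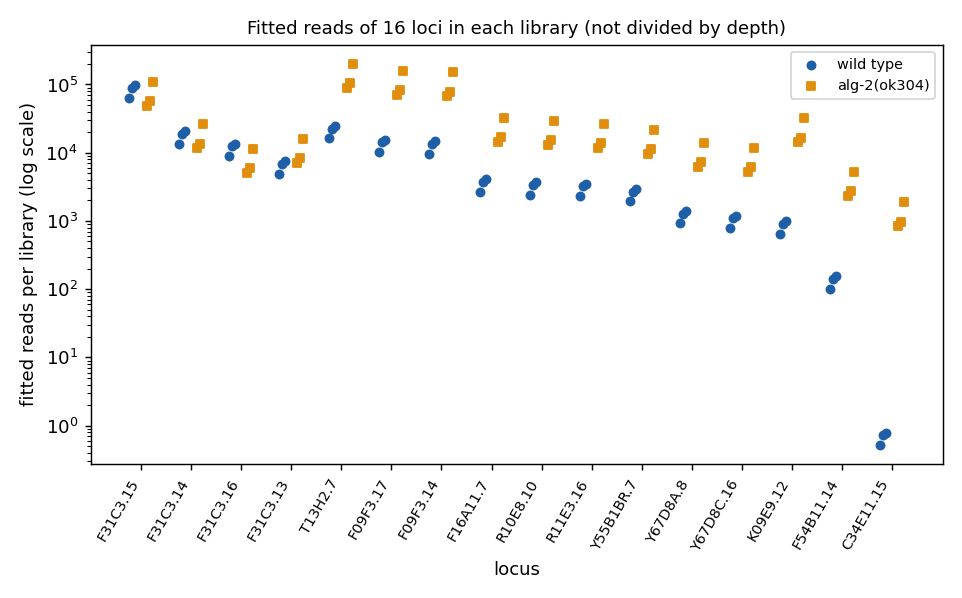
Fitted reads per library on a log scale for 16 loci, wild type as circles and alg-2(ok304) as squares, not divided by depth. The points of a group keep the same spacing at every locus because they are fitted values. The groups overlap at the F31C3 loci and nowhere else among these loci, which restates their unscaled sums and shows no spread between replicates.

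Several of the abundant loci had close log2 ratios, a pattern noticed after the values were seen. T13H2.7, F16A11.7, R10E8.10, R11E3.16 and Y55B1BR.7 lie on 5 chromosomes and had ratios from 1.16 to 1.30. The range also took in other loci, 7 of the 58 in all. F09F3.14, F09F3.17, Y67D8A.8 and Y67D8C.16 lie on chromosomes V and IV and had ratios from 1.55 to 1.62, with no other of the 58 in that range. Whether the loci of a set share sequence was not analysed here.

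Y55B1BR.7 (III:445651-445781) had 7562 against 42968 fitted reads, and no listed gene lay within 2 kb. Y67D8A.8 (IV:3254734-3254824) had 3598 and 27349, also with no listed gene nearby. Y67D8C.16 (IV:3135091-3135240) had 3076 and 22985, and lies 1941 bases from mca-3, a plasma membrane calcium pump gene, with 65.7 and 408. Where a listed gene lay near these loci, it thus had far fewer reads. Across the 11 loci outside F31C3 with at least 10000 fitted reads in alg-2(ok304), log2 ratios ran from 1.16 to 3.35. Each was above the reference median, though the lower ones were under the 1.40 of all coding genes, also those with few reads. The limit of 10000 was set on alg-2(ok304) alone, which favours loci higher there, so their shared direction is in part fixed by the choice. On the totals outside ribosomal RNA and the genes beside it, F16A11.7, R10E8.10, R11E3.16 and Y55B1BR.7 came to between -0.14 and -0.04, and with the short ncRNA rows left out of the totals to between 0.10 and 0.19.

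At the top of that range were F54B11.14 and K09E9.12. F54B11.14 (X:13577923-13578047, 125 bases) had 102, 142 and 155 fitted reads against 2355, 2763 and 5286, a log2 ratio of 3.35. K09E9.12 (X:15629778-15629828, 51 bases) had 654, 913 and 992 against 14228, 16698 and 31942, a log2 ratio of 3.27. Both were higher in alg-2(ok304) under every scale tried, from 2.06 and from 1.97 upwards.

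C34E11.15 differed most between the groups. This locus (X:11820398-11820483, plus strand, 86 bases) overlaps no annotated gene and had no listed gene within 2 kb. Its wild-type columns read 0.522, 0.730 and 0.793, and those of alg-2(ok304) 833, 977 and 1870, sums of 2.04 and 3680. The log2 ratio was 9.26, and between 8.03 and 11.5 under the other scales. Since the columns are fitted, it cannot be said whether each alg-2(ok304) library or only one of them had reads there. By reads outside ribosomal RNA it ranked 2057 in wild type, against 40 in alg-2(ok304).

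The 58 loci outside F31C3 were read against the table as a whole. Of these loci, 16 (27.6%) were past 4-fold higher in alg-2(ok304), against 39.8% of the 4786 genes above 0 in a group. The 16 include 5 rows of ZK973.16, all opposite exons of anc-1 and each counted as a locus, with log2 ratios of 2.15 to 2.46. These 5 are also among the 12 given below. Past 4-fold lower were 6 (10.3%), against 12.6%. The median log2 ratio of the loci was 1.17, and that of all genes was 1.35. With at least 10 fitted reads in a group, 12 of 49 loci (24.5%) were past 4-fold higher, against 43.8% of 2885 genes, and 3 (6.12%) were past 4-fold lower, against 11.9%. The share of loci on the higher side of no change was 81.0%, against 72.4% of all genes. On the totals outside ribosomal RNA and the genes beside it, 26 of the 58 loci and 2741 of the 4786 genes were on the higher side. The shares past 4-fold were thus below those of the table in both directions, a difference for which no test was possible. Genes of the table were more often at 0 in wild type than the loci, and a ratio from 0 is set by the pseudocount. The sets compared thus also differ in read level.

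**Figure D4:**
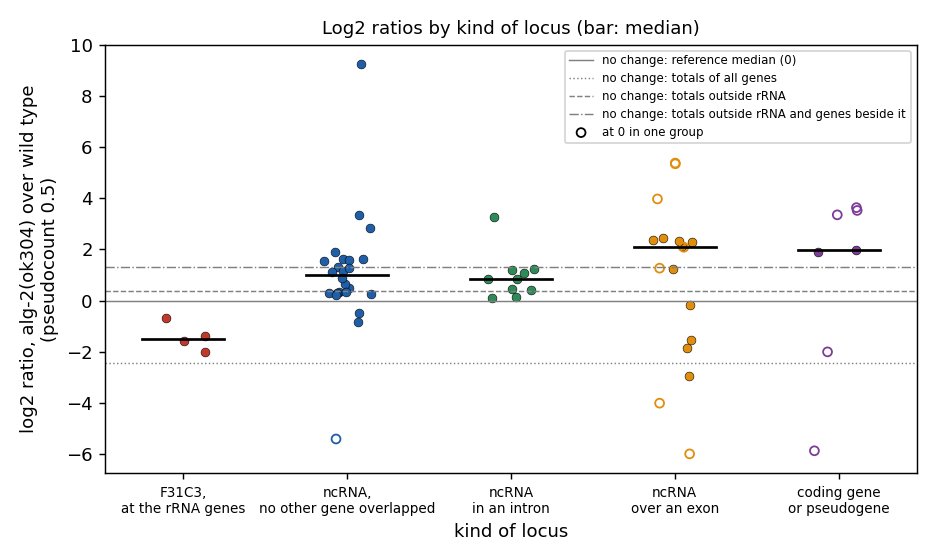
Log2 ratio of alg-2(ok304) over wild type for each locus above 0, by what the locus overlaps, with bars at the medians, open circles for loci at 0 in one group, and lines at the no-change points of 4 scales. The median is -1.49 at F31C3, 1.0 where no other gene is overlapped, 0.84 in introns and 2.09 over exons. The loci over exons include 5 rows of ZK973.16, all opposite anc-1.

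The spread followed the level. The 21 loci outside F31C3 with a higher sum between 100 and 10000 fitted reads all lay on the higher side, from 0.10 to 9.26 with a median of 0.90, and 11 of them were within 1 of no change. That direction held on the scale of all totals but not on the others: 16 of the 21 were higher on the totals outside ribosomal RNA, 8 without the genes beside it as well, with a median of -0.39, and 10 with the short ncRNA rows also left out. All 21 reached 100 in alg-2(ok304), some of them only there, such as C34E11.15 with 2.04 fitted reads in wild type. The sums were not scaled for depth, so this limit favours the higher side. The 26 loci under 100 fitted reads in both groups were split, 15 higher and 11 lower. Of the 58 loci, 8 were at 0 in wild type and 5 at 0 in alg-2(ok304), and the 45 above 0 in both had a median of 1.11. For the 4786 genes above 0 in a group, wild type had 2954 above 0, whereas alg-2(ok304) had 4491. A value of 0 for wild type was thus less frequent among the loci than among these genes. For alg-2(ok304) it was slightly more frequent among the loci. Among other rows annotated as ncRNA that are outside this run, 21 were above 0, with 8 past 4-fold higher, 3 past 4-fold lower and a median of 1.25. Of those, rncs-1, a noncoding RNA of the intestine and hypodermis, had 93.6 and 289 fitted reads, and tts-1, a ribosome-associated noncoding RNA of long-lived worms, had 51.5 and 127.

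By what they overlap, the 58 loci fall into 24 with no other gene, 10 in an intron, 17 over an exon and 7 that are not annotated as ncRNA. The 24 loci with no other gene had a median log2 ratio of 1.0, and 21 of them were on the higher side. Over all genes above 0 in a group, 3466 of 4786 were, with a median of 1.35. On the totals outside ribosomal RNA and the genes beside it, 10 of the 24 loci were higher, with a median of -0.29. Over all genes, 2741 of the 4786 were higher on that scale, with a median of 0.66. Of these 24, those of 2 rows, besides T13H2.7 and cTel29B.1, were K06G5.6 with 1886 and 6752 fitted reads (0.49), F31D4.10 with 156 and 628 (0.66), and Y71H9A.5 with 19.2 and 56.4 (0.21). These 3 were within 1 of the reference median, and lower on the totals outside ribosomal RNA and the genes beside it. They were also under the 1.40 of all coding genes, a median that takes in genes with few reads. F09F9.12 was the only one of the 24 listed at 0 in alg-2(ok304), with 3.35, 4.68 and 5.08 fitted reads in the wild-type columns, and F09F9.2, the gene 14 bases away, was also at 0 there, with 95.8 in wild type.

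Loci in introns shared their reads with the gene around them. The row of K09E9.4, a protein-coding gene, had the same values as that of K09E9.12, 2559 and 62868 fitted reads, and galt-1, a galactosyltransferase gene, had the same as M03F8.8, 238 and 1080. R11E3.16 had 8995 and 52370 fitted reads, and nhr-104, a nuclear hormone receptor gene, 8999 and 52391. F16A11.7, listed on both strands, had 10464 and 63563, and ppfr-1, a protein phosphatase subunit gene, 10464 and 63574. The row of such a gene therefore held almost no reads besides those of the short locus within it.

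Among 12 genes with a locus in an intron, 10 had at least 90% of their reads at the locus in both groups, the lowest being 90.5% for F17E5.4 in lin-2, a membrane scaffold protein gene, in alg-2(ok304). F46F2.12 and kin-20, a casein kinase gene, had 727 and 1990 against 727 and 2021 fitted reads. The exceptions were fkh-9, a forkhead factor gene, with 49.5% and 50.5% of its reads at K03C7.15, and herc-1, with 0% and 5.39% at Y48G8AL.16, itself a protein-coding gene. Together with anr-20, an antisense RNA gene over F16A11.7, 11 genes were of this kind and 9 of them protein-coding. They held 26.7% of the reads of the remaining genes in wild type, against 35.2% in alg-2(ok304), remaining meaning outside ribosomal RNA, the genes beside it and the short ncRNA rows. The reads of F16A11.7 enter these shares through both ppfr-1 and anr-20. Y102A11A.15 in igcm-4 was the only one of the 10 ncRNA loci in introns on the strand of its gene.

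**Figure D5:**
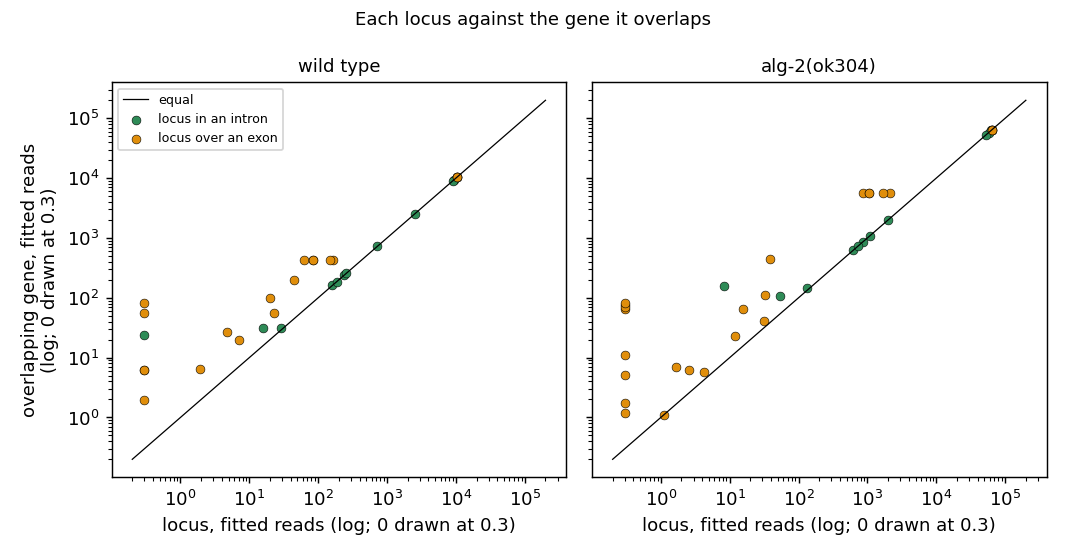
Fitted reads of each locus outside F31C3 (x axis) and of the listed gene it overlaps (y axis) in each group, on log scales, with the line of equal values. Loci in introns lie on or near the line, apart from K03C7.15 and Y48G8AL.16, and loci over exons mostly lie above it.

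Loci opposite exons of coding genes took a smaller part of their gene's reads. There were 29 such rows over 24 coding genes, all on the strand opposite to the gene, and 13 rows were at 0 in both groups, 7 of them with the gene at 0 as well. Of the 16 rows above 0, 15 had under 90% of the reads of the gene in each group where the gene had reads. The exception was F07F6.10 with 1.12 fitted reads in alg-2(ok304), where F07F6.1 had 1.09. ZK973.16 gave 5 rows of 150 bases opposite exons of anc-1, which encodes a giant protein that anchors nuclei, and 3 of the 4 distances between their starts were 2887 bases. Their log2 ratios, 2.15 to 2.46, enclosed the 2.35 of anc-1. Their reads summed to 544 and 6871, more than the 427 and 5562 of anc-1 itself.

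Apart from ZK973.16 and F16A11.7, none of the 17 ncRNA loci over an exon reached 100 fitted reads. F56D12.10 had 0 and 32.5 fitted reads, and vig-1 opposite it, a component of the RNA-induced silencing complex, had 6.13 and 113. C32D5.18 had 0 and 31.8 opposite C32D5.8, and F54A3.10 had 0 and 11.8 opposite cbs-2, a cystathionine beta-synthase gene. In each of these cases the gene was also higher in alg-2(ok304). There the locus equalled 28.8% of the reads of vig-1, 78.5% of those of C32D5.8 and 52.1% of those of cbs-2. As reads were counted for the rows of both strands, the gene's reads may in part be those of the locus. These loci were also named for their large log2 ratios.

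On the lower side, F25H2.16 had 5.06, 7.06 and 7.67 fitted reads against 0 in each alg-2(ok304) column, opposite tct-1, the gene of translationally controlled tumour protein, with sums of 98.7 and 76.5. Y24D9A.11 had 44.7 and 38.8 (log2 ratio -1.54) opposite rpl-7A, a ribosomal protein gene with 196 and 451. T04C12.26 had 22.8 and 15.5 (-1.86) opposite act-3, an actin gene with 54.7 and 65.7. F25H2.16 and Y24D9A.11 each also overlap a snoRNA gene that was not listed. Y24D9A.11 and T04C12.26 were higher on the scale of all totals. As a share of the gene's reads, the locus came to 22.8% and 8.61% for rpl-7A and to 41.6% and 23.5% for act-3, but C15F1.13 went from 30.5% to 74.9% of sod-1, a superoxide dismutase gene, with 1.94 and 4.28 fitted reads. Over the 12 rows whose gene was above 0 in both groups, the share was smaller in alg-2(ok304) for 8 and larger for 4. The 12 include the 5 rows of ZK973.16, which share the gene anc-1, and rows with few reads, such as F43D9.8 with 4.76 and 0. They are thus not 12 independent cases.

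The 8 rows that are not annotated as ncRNA had few reads. The protein-coding F14E5.8 had the most, 16 and 154 (log2 ratio 1.90). ZK1127.13, also protein-coding, had 18.2 in wild type, against 0 in alg-2(ok304). The others ran up to 21.2 fitted reads in either group.

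The listed ncRNA rows were 51 to 688 bases long with a median of 149, and 17 of the 75 (22.7%) were 150 bases long, against 6.18% of all annotated ncRNA of the run. By chromosome, 17 of the 51 ncRNA loci above 0 outside F31C3 lay on X (33.3%), near the 33.5% of annotated ncRNA of the run on X. The reads did not follow the number of loci. In alg-2(ok304), the 8 loci on V held 664567 fitted reads and the 17 on X held 489685, while the 7 on II held 345.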

How the data were processed

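RNA from polysome immunoprecipitation of 3 wild-type and 3 alg-2(ok304) samples had been made into libraries with a low-input kit. Per the submitters' notes, the authors used cutadapt (2.10) for trimming and HISAT2 (2.2.0) for alignment to WBcel235, counted reads on genes with featureCounts (Subread 2.0.0) and compared groups with edgeR (3.11). They deposited 1 table. Its library columns were treated as a signal, since the deposited values are fitted and not counts, and its average log2 CPM column was deposited by the authors and not used as a result. The authors' p-value and FDR columns, which hold their comparison, were not used. The count tests planned for the case of read counts were therefore not run.

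Rows were placed by Ensembl release 115 of WBcel235 (5733 of 5739 identifiers matched), a later annotation than the authors' on the same assembly. Loci, lists and rules were chosen with earlier results of these data known. Loci were named if they were at F31C3, were C34E11.15, were among the 8 with the most reads or the 5 with the largest or smallest log2 ratio at 10 or more fitted reads in one group, or had more than 1 row, each with its overlapping gene or its nearest listed gene within 2 kb. Others were named after their values were seen. The depth in reads is unknown. Python 3.11.15, numpy 2.4.6, pandas 2.3.3 and matplotlib 3.10.9 were used, and the scale was tested on simulated data. Other scales, pseudocounts, minimum levels, denominators and left-out libraries were tried. Marker genes of hypodermis (11 of 15 listed, 581 and 1622 fitted reads in wild type and alg-2(ok304)), intestine (13 of 15, 212 and 855) and germline (6 of 15, 6.89 and 28.4) were also read.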

Additional observations from a re-analysis of the deposited data

How the results depend on the processing

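No paired analysis was possible because the library columns are fitted values without variation between replicates, which also keeps every result below from being tested. The number of loci outside F31C3 past 4-fold higher in alg-2(ok304), 16, came to 47 on the totals of all genes, 8 on totals without ribosomal RNA and the genes beside it, 9 when the short ncRNA rows were left out of those totals as well (a scale added after seeing the data), and 10 with a pseudocount of 5. The number past 4-fold lower, 6, came to 3 with a pseudocount of 5 and to 3 with at least 10 fitted reads. The median log2 ratio of 1.17 came to 3.54 on all totals, 0.80 without ribosomal RNA, -0.12 without the genes beside it as well, 0.12 on the added scale and 0.92 with a pseudocount of 5, so its sign depended on the scale. F31C3.16, at -2.0, came to 0.46 on all totals. The share of the rows, 1.37% and 10.2% of all reads, came to 65.6% and 68.5% without ribosomal RNA. With each locus counted once, it came to 1.21% and 8.02% of all reads. The rows outside F31C3 alone held 62.2% and 68.0% of the reads outside ribosomal RNA and the genes beside it. Leaving out 1 library at a time gave 14 to 18 loci higher, 5 to 6 lower and a median of 0.93 to 1.33. The shares stayed at 1.37% and 10.2%, which proportional columns make certain. A scale from the authors' average log2 CPM could not be recovered and was not run.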
